A study of Mus musculus with 12 samples.

Results

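Aminoacyl-tRNA synthetases are the enzymes that attach each amino acid to its transfer RNA. The 36 genes described here were chosen by symbol from 24982 in all. The rule used none of their values, but earlier results of these data were known when the choice was made. Of the 36, 20 encode cytosolic enzymes or subunits and 16, with symbols ending in 2, encode mitochondrial enzymes. Polyadenylated RNA was measured in B lymphocytes from spleens of mice 6 weeks old, in 3 groups of 4 libraries. The WT group came from C57BL/J6 mice. The Eμ-Myc group carried a Myc transgene under the immunoglobulin heavy-chain enhancer, which is active in cells of the B lineage. The group labelled Eμ-Myc; PRPS2 KO, called the knockout group here, carried the same transgene and lacked PRPS2. PRPS2 makes phosphoribosyl pyrophosphate, a precursor of nucleotides, and the labels used here do not say how the knockout was made or whether it was limited to B cells. Eμ-Myc was set against WT to catalogue what Myc deregulates, and the knockout group against Eμ-Myc to see what PRPS2 loss does to that programme.

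Cells carry separate sets of these enzymes for cytosolic and mitochondrial protein synthesis, and the mitochondrial ones are encoded by nuclear genes and imported as proteins. The glycyl- and lysyl-tRNA synthetases, Gars and Kars, serve both compartments from a single gene. Mitochondria make glutaminyl-tRNA indirectly, through Ears2 and an amidotransferase, so Qars has no mitochondrial form. In the cytosol several of the enzymes join the scaffold proteins Aimp1, Aimp2 and Eef1e1 in the multisynthetase complex. Demand for charged tRNA follows the rate of protein synthesis, which Myc is known to raise, and part of the cytosolic set is also known to be induced by the transcription factor ATF4 when amino acids are short.

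Prps2 matched the labels in every library. Its scaled coverage was 103, 140, 128 and 143 in WT libraries 1 to 4, 245, 196, 251 and 283 in Eμ-Myc, and 19.0, 17.0, 16.2 and 15.4 in the knockout group. Myc was at 234 to 352 in WT, at 1543 to 2281 in Eμ-Myc, and at 1141, 1714, 2858 and 3115 in knockout libraries 1 to 4. The summed deposited coverage ran from 1277310 to 1885770 per library. How many reads lie behind a value is unknown, so errors are the spread between libraries. The labels call the libraries biological replicates without saying that each came from a separate mouse, so p-values measure the spread between these samples. All 8 B-cell markers checked, Cd79a and Ms4a1 among them, were above 0 in all groups. The marker lists of other cell types passed the same check, so it does not measure purity. Of the 8, only Cd22 had a limma adjusted p under 0.05 between WT and Eμ-Myc, and it was lower in Eμ-Myc (adjusted p = 0.00383). Markers of other cells were present too: the summed level of 9 T-cell genes was 477 to 2702 in WT, 98.2 to 142 in Eμ-Myc, and 607, 629, 29.6 and 27.3 in knockout libraries 1 to 4. The summed level of 8 myeloid genes was 8212 to 25929 in WT and 5640 to 16591 in Eμ-Myc. That of the 8 B-cell genes was 8376 to 15076 in WT and 8660 to 11043 in Eμ-Myc. In bulk RNA of this kind, fewer cells of a type and less RNA per cell cannot be told apart.

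Levels differed among the members by nearly 2 orders of magnitude. The deposited values are read here as coverage per base of a gene, since they showed no relation to exonic length (Spearman's rho across 12548 genes 0.00795), so levels of different genes are set side by side on that scale. In WT the highest was Kars, the lysyl-tRNA synthetase, at 526 ± 18.3 (SD, n = 4). Farsb, the β subunit of the phenylalanyl enzyme, followed at 225 ± 14.3, Vars (valyl) at 224 ± 35.5 and Nars (asparaginyl) at 223 ± 11.2; these 3 did not differ beyond their spread. The lowest were mitochondrial: Nars2 at 6.64 ± 0.50, Wars2 at 6.46 ± 0.723 and Ears2 at 6.11 ± 1.07, again within each other's spread. The median level over genes was 98.2 for the cytosolic and 25.5 for the mitochondrial set in WT, and 185 and 44.2 in Eμ-Myc.

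The exception among the mitochondrial enzymes was Tars2, the threonyl form, at 201 ± 30.2 in WT and 312 ± 20.1 in Eμ-Myc. It was the fifth highest of all members in both groups, and lay above its cytosolic partner Tars (56.8 ± 5.18 in WT and 98.2 ± 9.68 in Eμ-Myc). In Eμ-Myc the order at the top was Kars (1271 ± 80.8), Farsb (464 ± 26.6), Nars (340 ± 26.9), Vars (327 ± 15.2), Tars2 and Eprs (277 ± 35.1). Eprs, the bifunctional glutamyl- and prolyl-tRNA synthetase, had stood beside Qars in WT, at 115 ± 11.4 against 116 ± 4.20.

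**Figure D1:**
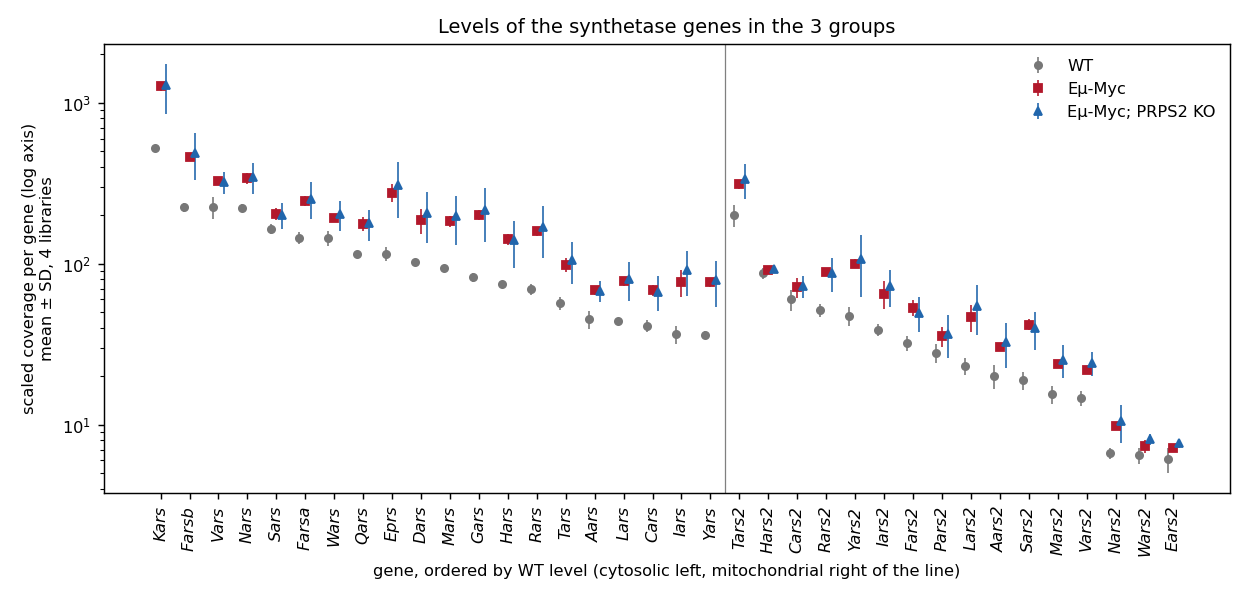
Scaled coverage of the 36 synthetase genes on a log axis, as mean ± SD over 4 libraries in WT (grey circles), Eμ-Myc (red squares) and the Eμ-Myc; PRPS2 KO group (blue triangles), cytosolic genes left of the line and mitochondrial right. Kars is highest in each group, Tars2 stands above the other mitochondrial genes, and the knockout bars are the widest for most genes.

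Eμ-Myc libraries had higher scaled coverage of the whole cytosolic set than WT libraries. Scaled coverage is a relative level in bulk RNA, so mRNA per B cell was not measured. All 20 cytosolic genes rose, by 0.31 (Sars) to 1.28 (Gars) on the log2 scale with a median of 0.84, and 11 of the 16 mitochondrial genes rose, with a median of 0.61 over the 16. No member fell, though 1 of the 36 differences, that of Hars2, changed sign when libraries were scaled by total coverage (0.07 to -0.05). A gene was called at a Benjamini-Hochberg adjusted p under 0.05 in limma's test over 12689 genes, all fold changes being of log2(scaled coverage + 0.5). This contrast moved a large part of the transcriptome: 55.9% of the genes tested were called, 28.7% higher and 27.3% lower, and over all genes the log2 fold changes had a median of -0.06. Total coverage scaling shifted that median to -0.19 and the cytosolic median to 0.71. The 4 Eμ-Myc libraries lay above all 4 WT libraries in 20 of 20 cytosolic and 12 of 16 mitochondrial genes, against 27% of all genes tested.

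Gars charges glycine in both compartments and lies at chr6:55038007-55079500 on the plus strand (GENCODE M21, the build named mm10 in the submitters' notes). Its scaled coverage was 87.0, 77.3, 79.1 and 85.8 in WT and 187, 193, 209 and 216 in Eμ-Myc. The groups were far apart, with each library close to its group's mean, and the log2 fold change was 1.28 (SE 0.09, adjusted p = 6.89e-06).

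Kars, the other enzyme that serves both compartments, lies at chr8:111993443-112011323 on the minus strand. Its coverage was 511, 519, 520 and 552 in WT and 1153, 1324, 1283 and 1324 in Eμ-Myc, a log2 fold change of 1.27 (SE 0.08, adjusted p = 5.84e-06). No library came near the other group. Of all genes tested, 7.54% had a larger increase than Kars.

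Eprs (chr1:185363044-185428360) was at 99.4, 117, 126 and 117 in WT and at 254, 240, 308 and 306 in Eμ-Myc, 1.26 higher on the log2 scale (SE 0.12, adjusted p = 3.83e-05). Rars, the arginyl enzyme, was at 67.4, 71.3, 63.2 and 75.1 in WT and at 147, 156, 167 and 169 in Eμ-Myc, 1.20 higher (SE 0.09, adjusted p = 1.24e-05). Both belong to the multisynthetase complex, and in both the lowest Eμ-Myc library stood well above the highest WT library. The 3 further cytosolic genes with a log2 fold change of at least 1 were Yars (1.06), Iars (1.05) and Farsb (1.04).

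At the other end of the cytosolic set stood Sars, Wars and Vars. Sars, the seryl enzyme (chr3:108424865-108445209), was at 151, 173, 159 and 178 in WT and at 187, 227, 197 and 209 in Eμ-Myc. The highest WT and the lowest Eμ-Myc library nearly met, and the log2 fold change was 0.31 (SE 0.10, adjusted p = 0.0225). Without WT library 1, WT library 3 or Eμ-Myc library 4 the call was lost, with an adjusted p of up to 0.0625.

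Wars, the tryptophanyl enzyme, is known for its induction by interferon-γ. It was at 125, 163, 151 and 139 in WT and at 184, 186, 201 and 198 in Eμ-Myc, 0.41 higher (SE 0.10, adjusted p = 0.00707). Vars was at 189, 265, 242 and 200 in WT and at 314, 348, 319 and 330 in Eμ-Myc, 0.56 higher (SE 0.12, adjusted p = 0.00375). The groups did not overlap for either gene, and the WT libraries of both were spread more widely than those of most cytosolic members. Sars and Wars were the genes that lost their call under total coverage scaling.

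**Figure D2:**
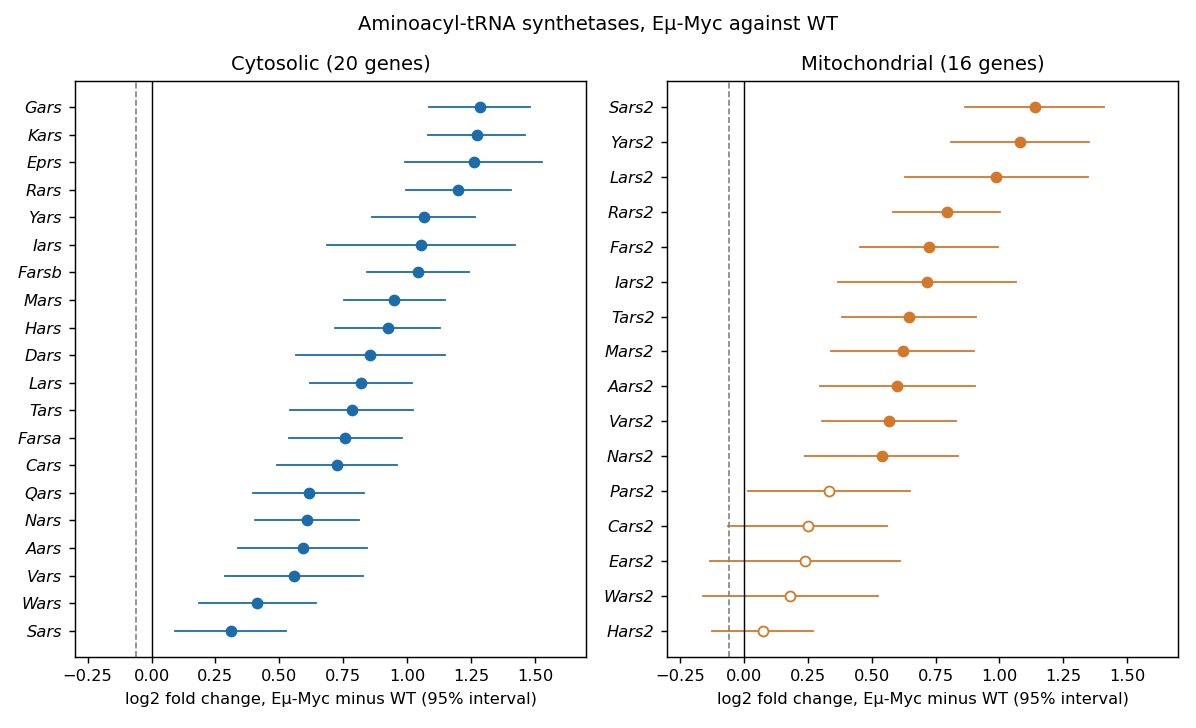
Log2 fold change of each synthetase gene in Eμ-Myc against WT with its 95% interval, cytosolic genes left and mitochondrial right, filled where the adjusted p is under 0.05; the dashed line is the median of all genes tested. All 20 cytosolic and 11 of 16 mitochondrial points are filled, and all 36 lie right of 0 under the scaling used.

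Among the mitochondrial enzymes, Sars2 changed most, in contrast to the cytosolic Sars. Sars2 (chr7:28741992-28753871), which charges mitochondrial serine tRNAs, was at 15.9, 19.2, 18.6 and 21.7 in WT and at 38.4, 46.3, 41.4 and 41.5 in Eμ-Myc, 1.14 higher (SE 0.12, adjusted p = 6.99e-05). Yars2, the tyrosyl form, was at 47.7, 53.4, 38.2 and 50.7 in WT and at 94.0, 110, 97.0 and 101 in Eμ-Myc, 1.08 higher (SE 0.12, adjusted p = 8.73e-05). The groups were clearly separate in both genes.

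Lars2 (leucyl) was at 22.1, 19.9, 23.5 and 26.6 in WT and at 46.9, 34.2, 52.1 and 53.0 in Eμ-Myc, 0.99 higher (SE 0.16, adjusted p = 0.000751), with Eμ-Myc library 2 the lowest of its group. Rars2 (arginyl) was at 45.1, 52.0, 53.7 and 55.6 in WT and at 87.0, 89.6, 92.9 and 88.5 in Eμ-Myc, 0.79 higher (SE 0.09, adjusted p = 0.000117). The remaining called members, Fars2, Iars2, Tars2, Mars2, Aars2, Vars2 and Nars2, rose by 0.72 to 0.54. The annotation has 22.9% of the exonic bases of Iars2 in common with Rab3gap2 on the opposite strand, and the sources used here do not say whether the strand was used in counting.

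The 5 members that did not pass were all mitochondrial: Hars2, Wars2, Ears2, Cars2 and Pars2. Hars2, the histidyl form, was at 80.4, 88.8, 84.1 and 97.1 in WT and at 94.1, 93.1, 89.0 and 91.9 in Eμ-Myc, a log2 difference of 0.07 (95% interval -0.12 to 0.27, adjusted p = 0.492). Its groups lay over each other. Wars2 was at 5.55, 6.21, 7.02 and 7.07 in WT and at 7.24, 6.48, 7.94 and 7.89 in Eμ-Myc, a difference of 0.18 (-0.16 to 0.52, adjusted p = 0.328).

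Ears2, which charges mitochondrial glutamate and glutamine tRNAs with glutamate, was at 4.64, 6.68, 6.04 and 7.07 in WT and at 7.52, 7.20, 6.92 and 7.22 in Eμ-Myc, a difference of 0.24 (-0.13 to 0.61, adjusted p = 0.241). Wars2 and Ears2 are among the lowest members, where the single decimal of the deposited values is coarse. Pars2 (prolyl) was at 22.6, 30.8, 31.1 and 27.5 in WT and at 32.3, 32.7, 42.6 and 33.7 in Eμ-Myc. Its groups did not overlap, yet its difference of 0.33 (0.01 to 0.65) had an adjusted p of 0.0702. Cars2 differed by 0.25 (-0.06 to 0.56, adjusted p = 0.148), with overlapping groups.

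The members were also read by role. All 8 synthetases of the multisynthetase complex rose, with a median of 1.00, and so did the 12 cytosolic genes outside it, with a median of 0.74. Higher calls made up 28.7% of all genes tested. The enzymes fall into structural classes that differ in the fold of the catalytic domain, and the medians of both cytosolic classes were 0.82. For 11 cytosolic synthetases known as ATF4 targets the median was 0.78, and for the other 9 it was 0.85. No difference between these groups of genes was tested.

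The scaffold proteins of the complex rose with its enzymes. Eef1e1, also known as AIMP3, was at 47.2, 57.9, 52.4 and 59.8 in WT and at 132, 159, 171 and 178 in Eμ-Myc, 1.54 higher (SE 0.12, adjusted p = 1.48e-05). Aimp2 was at 75.3, 86.2, 73.0 and 89.8 in WT and at 173, 263, 211 and 223 in Eμ-Myc, 1.41 higher (SE 0.14, adjusted p = 4.24e-05). These changes were above that of every synthetase of the complex, while Aimp1 rose by 0.82 (SE 0.12).

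Of 15 genes that work alongside the synthetases, 13 rose and none fell, with a median of 0.79. Over all genes tested, 28.7% were called higher and 27.3% lower. Aarsd1, which clears mischarged alanine tRNA, was at 40.2 to 44.8 in WT and at 93.7 to 133 in Eμ-Myc, 1.30 higher (SE 0.12, adjusted p = 3.41e-05). Xpot, which exports tRNA from the nucleus, rose by 1.07 and Trnt1, which adds the CCA end, by 0.70. The subunits of the mitochondrial glutamyl-tRNA amidotransferase, Gatb, Gatc and Qrsl1, rose by 0.78, 0.35 and 0.42, beside the 0.24 of Ears2, which did not pass. Mtfmt, which formylates the mitochondrial initiator tRNA, and Prorsd1, an editing protein, did not pass, at 0.19 and 0.30.

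In the list of 15 amino acid response genes 14 were tested, 6 rose and 3 fell, with a median of -0.01. Of all genes tested 28.7% were called higher and 27.3% lower, and nothing particular to the list is read from its count. The serine synthesis enzymes Psat1 and Phgdh rose by 2.12 and 2.13, the amino acid transporter gene Slc7a5 by 2.15 and the asparagine synthetase gene Asns by 2.71 (SE 0.50). Asns was at 16.9 in WT library 1 and at 2.45 to 4.44 in WT libraries 2 to 4. The transcription factor gene Ddit3 fell by 0.87 and the pseudokinase gene Trib3 by 1.05. Trib3 was at 1.04 to 2.17 in WT and at 0.20 to 0.75 in Eμ-Myc, where the single decimal of the deposited values is coarse. Atf4 itself was at 418 to 701 in WT and at 566 to 668 in Eμ-Myc, a difference of 0.16 that did not pass (adjusted p = 0.406). Mars and Ddit3 overlap by 68 exonic bases on opposite strands.

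Other gene lists moved with the same contrast, in which 28.7% of all genes tested were called higher and 27.3% lower. The 8 proliferation genes all rose, with a summed level of 108 to 234 in WT and 947 to 1486 in Eμ-Myc. All 9 T-cell genes and all 6 natural killer cell genes fell; the summed level of the latter was 340 to 1489 in WT and 93.0 to 245 in Eμ-Myc. Of 8 genes of immature B cells 5 rose and 1 fell, with a summed level of 457 to 779 in WT and 1297 to 1949 in Eμ-Myc. No marker gene of the cell types was at 0 in all libraries of a group, and the part of these cell types in the synthetase changes was not tested. WT library 4 held the highest T-cell level and WT library 1 the highest myeloid level. Without WT library 4, 31 of the 36 members were called, and without WT library 1, 30.

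Sequence upstream of the start was available in RefSeq (GRCm38.p6) for 27 of the 36 members, 13 cytosolic and 14 mitochondrial. The 250 bases before each annotated start were searched on both strands for the E-box CACGTG, the site that Myc and its partner Max prefer, and for TGATGNAA, the core of the composite C/EBP-ATF element through which ATF4 acts. The E-box was in 3 of the 13 cytosolic genes and in 0 of the 14 mitochondrial genes. It is in the promoters of 9.97% of the tested genes in the table and of 6.86% of all its genes. The stretches that hold it are shown so that the matches can be read, with the E-box in capitals.
Farsb, chr1:78488919-78488948, minus strand: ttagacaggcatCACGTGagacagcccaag
Iars, chr13:49682049-49682078, plus strand: gaccaatcgccaCACGTGttgtttgtaggt
Aars, chr8:111033684-111033713, plus strand: agtcaaccctgtCACGTGacactccatgtc

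The first base of the motif was 39 bases before the RefSeq start in Farsb, 69 in Iars and 146 in Aars. In GENCODE M21 Aars starts farther upstream, at base 111033144 of chromosome 8, and the stretch shown for it overlaps 1 annotated exon. These genes rose by 1.04, 1.05 and 0.59, within the range of 0.31 to 1.28 of the cytosolic set. A match describes these letters and shows no binding.

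The ATF element core was also in 3 of the 13 cytosolic genes and in 0 of the 14 mitochondrial genes, against 2.44% of the tested genes in the table and 3.91% of all its genes. It did not overlap an E-box. The third gene is Aars, where the core began 112 bases before the RefSeq start. It is shown in capitals for Gars and Tars, where it reads on the opposite strand.
Gars, chr6:55037959-55037988, plus strand: ctggctgcgctaTTTCATCAtgcaccgggc
Tars, chr15:11399659-11399688, minus strand: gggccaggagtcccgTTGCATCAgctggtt

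The core began 30 bases before the RefSeq start in Gars and 15 in Tars, and the stretch of Tars overlaps 1 annotated exon of GENCODE M21. Their log2 fold changes in Eμ-Myc were 1.28 and 0.78, which places Gars at the top and Tars below the median of the cytosolic set. Aars, the third gene with the core, rose by 0.59, also below that median. In 14.3% of its exonic bases Aars overlaps Exosc6 on the same strand, so reads there cannot be told apart.

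The cytosolic and mitochondrial enzymes of the same amino acid formed 17 pairs. The cytosolic gene had the larger log2 fold change in 12 pairs and the mitochondrial gene in 5. The log2 ratio of the pair was higher in every Eμ-Myc library than in every WT library in 7 pairs, lower in 1, and overlapped in 9. No p-value was computed for the ratios.

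The pair of Eprs and Ears2 differed most, by 1.02. Its log2 ratio was 4.28, 4.04, 4.28 and 3.96 in WT and 4.99, 4.97, 5.38 and 5.31 in Eμ-Myc. Eprs against Pars2 differed by 0.93, with ratios of 2.11, 1.92, 2.01 and 2.07 in WT and 2.95, 2.86, 2.84 and 3.17 in Eμ-Myc. Eprs is the cytosolic member of both pairs, so they are not independent.

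Hars against Hars2 differed by 0.85. Hars, the cytosolic histidyl enzyme, was at 70.9, 79.3, 73.3 and 74.3 in WT and at 127, 142, 143 and 155 in Eμ-Myc, 0.92 higher (SE 0.09, adjusted p = 4.63e-05). The log2 ratio to Hars2 went from below 0 in all WT libraries (-0.18, -0.16, -0.20 and -0.38) to above 0 in all Eμ-Myc libraries (0.43, 0.60, 0.68 and 0.76). The genes lie head to head on opposite strands of chromosome 18 and overlap by 195 exonic bases, which are 7.97% of those of Hars and 4.56% of those of Hars2.

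Sars against Sars2 was the 1 pair whose ratio was lower in Eμ-Myc. Its log2 ratio was 3.21, 3.14, 3.06 and 3.01 in WT and 2.27, 2.28, 2.24 and 2.32 in Eμ-Myc, which takes the linear ratio from 8.60 to 4.84. Yars and Yars2 rose by 1.06 and 1.08, and their ratio overlapped between groups.

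**Figure D3:**
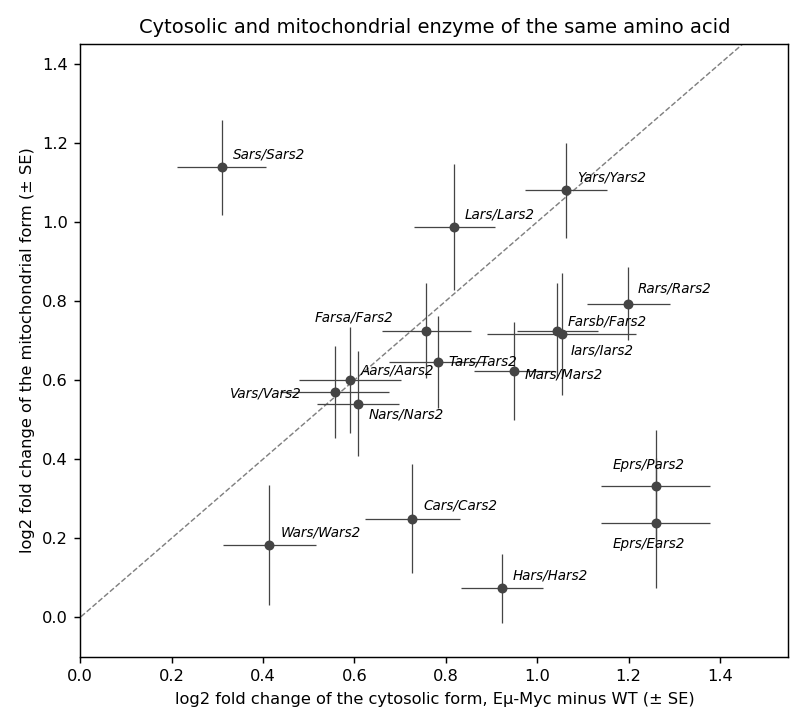
Log2 fold change in Eμ-Myc against WT of the cytosolic enzyme (x axis) and of the mitochondrial enzyme (y axis) for the 17 pairs of the same amino acid, with bars of ± SE; the dashed line marks equal change. Sars/Sars2 lies above the line, and the pairs of Eprs with Ears2 and Pars2 and of Hars with Hars2 lie farthest below it.

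The 16 mitochondrial genes held a smaller share of the summed synthetase coverage in Eμ-Myc. It was between 19.5% and 22.4% in WT and 17.6%, 17.7%, 17.1% and 16.6% in Eμ-Myc, without overlap. In the knockout group it was 18.8%, 17.7%, 16.8% and 17.0%, also below every WT library. The phenylalanyl enzyme is made of equal numbers of Farsa and Farsb chains, and the Farsb to Farsa ratio of coverage was 1.40, 1.57, 1.80 and 1.43 in WT, 1.91, 1.77, 2.00 and 1.86 in Eμ-Myc, and 1.78, 1.78, 2.08 and 1.93 in the knockout group. The WT and Eμ-Myc ranges met at WT library 3, and the knockout and Eμ-Myc ranges overlapped.

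PRPS2 loss was not accompanied by a detectable shift of the set within Eμ-Myc cells. Of the 36 members 0 were called by limma, and 0 had an unadjusted p under 0.05; the log2 fold changes ran from -0.13 (Fars2) to 0.21 (Iars), with medians of 0.01 in the cytosolic and 0.05 in the mitochondrial set. Of 12518 genes tested, 0.00799% were called (Prps2 alone, which fell by 3.80, adjusted p = 2.26e-05), and an unadjusted p under 0.05 was found for 0.943%. All genes tested had a median of -0.04. The sign of the cytosolic median rested on single libraries, at 0.17 without knockout library 1, -0.11 without library 3, -0.10 without library 4 and -0.02 without Eμ-Myc library 1. The 95% intervals do not exclude changes of moderate size: they were widest for Yars2, from -0.68 to 0.65, and narrowest for Hars2, from -0.19 to 0.22. The groups overlapped in all 36 members, while 1.53% of all genes did not overlap.

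The members with the smallest p were Wars2, Vars2 and Iars. Wars2 was at 7.24, 6.48, 7.94 and 7.89 in Eμ-Myc and at 7.70, 7.55, 8.41 and 8.95 in the knockout group, a log2 difference of 0.13 (SE 0.15, unadjusted p = 0.398, adjusted p = 1). Vars2 (valyl) was at 21.7, 21.7, 21.9 and 22.1 in Eμ-Myc and at 19.8, 21.3, 27.8 and 27.8 in the knockout group, a difference of 0.13 (SE 0.14, unadjusted p = 0.401, adjusted p = 1). The Eμ-Myc libraries of Vars2 were nearly equal, and knockout libraries fell on both sides of them.

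Iars, the isoleucyl enzyme of the multisynthetase complex, was at 79.7, 55.7, 81.8 and 90.5 in Eμ-Myc and at 59.2, 75.3, 117 and 113 in the knockout group. Its difference of 0.21 (SE 0.25, unadjusted p = 0.429, adjusted p = 1) was smaller than the spread within the knockout group. None of the 15 partner genes and none of the 13 amino acid response genes tested passed either, where 0.00799% of all genes tested were called.

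**Figure D4:**
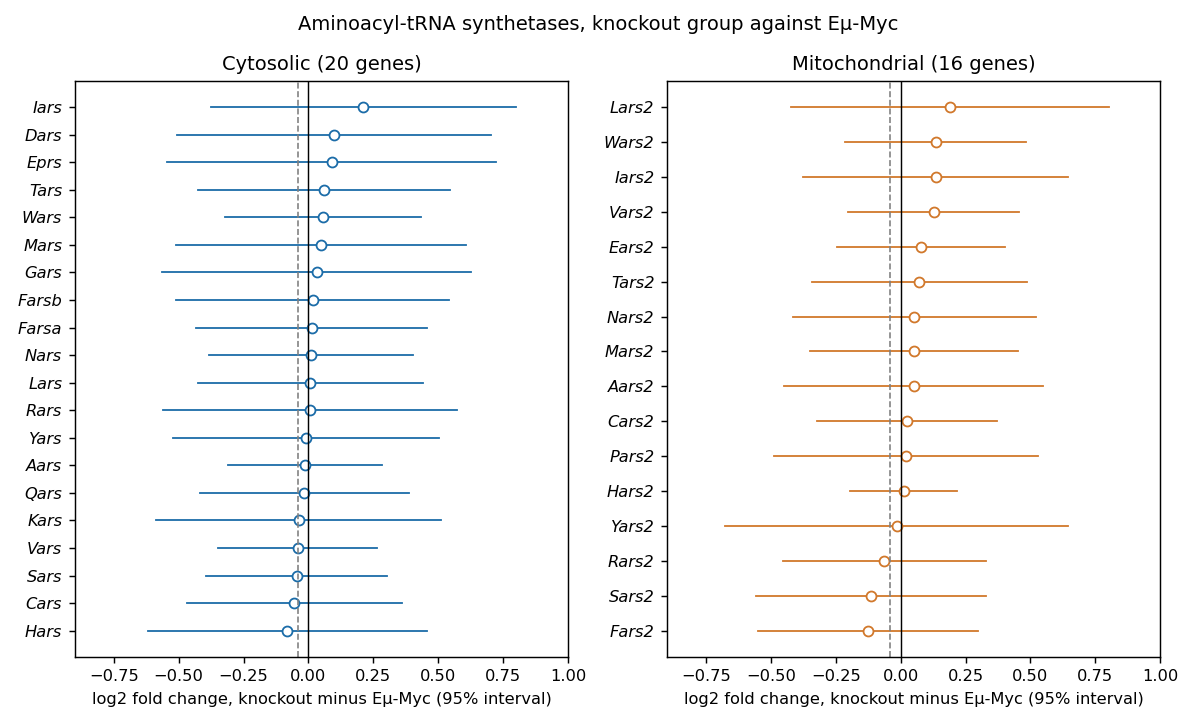
Log2 fold change of each synthetase gene in the Eμ-Myc; PRPS2 KO group against Eμ-Myc with its 95% interval, cytosolic genes left and mitochondrial right; the dashed line is the median of all genes tested. No point is filled, since none had an adjusted p under 0.05, and every interval includes 0.

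The knockout libraries were far from alike. In all 36 members the 2 highest values of the group were those of libraries 3 and 4, an order that 41.6% of all genes tested had. In 18 of 20 cytosolic and 9 of 16 mitochondrial genes, libraries 1 and 2 lay below all 4 Eμ-Myc libraries and libraries 3 and 4 above them all, against 14.5% of all genes. The median SD of the log2 values was 0.45 in the knockout group and 0.11 in Eμ-Myc for the cytosolic set, and 0.35 and 0.10 for the mitochondrial set; over all genes it was 0.37 and 0.21.

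Kars shows the pattern at the highest level, with 824, 1018, 1658 and 1679 in knockout libraries 1 to 4 around the 1153 to 1324 of Eμ-Myc. Yars2 had the widest ratio of highest to lowest, at 60.2, 77.6, 143 and 145, or 2.41 times. Hars2 had the narrowest, at 88.2, 90.1, 92.2 and 101, or 1.14 times. Within Eμ-Myc the ratio of highest to lowest had a median of 1.18 over the cytosolic set, against 1.91 in the knockout group.

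Relative to the WT mean of each gene, the cytosolic median was 0.39, 0.59, 1.26 and 1.21 on the log2 scale in knockout libraries 1 to 4, and 0.74, 0.77, 0.94 and 0.96 in Eμ-Myc libraries 1 to 4. The mitochondrial median was 0.28, 0.41, 0.93 and 0.95 in the knockout libraries and 0.51, 0.56, 0.62 and 0.62 in Eμ-Myc. Thus each knockout library was above WT in the medians of both sets, with libraries 1 and 2 below and libraries 3 and 4 above every Eμ-Myc library.

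Other readouts varied over the same libraries. The 8 proliferation genes summed to 618, 894, 1924 and 1885 in knockout libraries 1 to 4, and Myc had the same low and high libraries. The marker lists of other cell types did not all vary the same way. The 6 natural killer cell genes summed to 584, 434, 23.2 and 20.5, and the 8 myeloid genes to 15964, 11441, 2858 and 1248. The 8 B-cell genes summed to 9200, 9206, 7327 and 7618, a much narrower range, and the 6 plasma cell genes to 514, 596, 232 and 261. The sums of the immature B cell genes, at 980, 1036, 1524 and 1406, and of the erythroid genes, at 105, 88.8, 120 and 126, were higher in libraries 3 and 4. The immature B sum followed Vpreb3, at 833, 877, 1471 and 1355. Rag1 (22.9, 27.5, 7.99 and 9.69) and Il7r (88.1, 99.4, 7.26 and 5.69) were lower there, and the rest of that list overlapped. Of the erythroid genes, Hba-a1, Hba-a2 and Hbb-bs overlapped, and the rest were higher in libraries 3 and 4. No marker of these lists was at 0 in all libraries of the group. The part of cell composition or of Myc level in the synthetase spread was not tested. A fit with library quality weights gave knockout libraries 1 and 2 weights of 0.0863 and 0.132, and libraries 3 and 4 weights of 3.09 and 7.99. This fit therefore rests on libraries 3 and 4. It called 18 cytosolic and 10 mitochondrial members higher, where 6947 of all 12518 genes were called, 3034 of them higher.

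**Figure D5:**
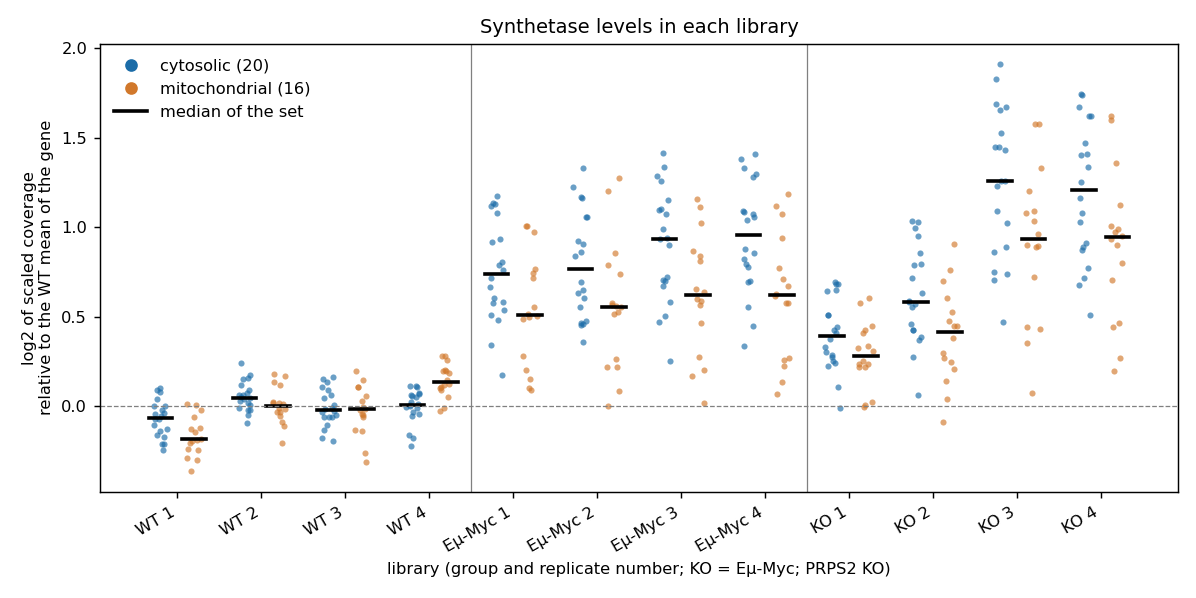
Each point is 1 synthetase gene in 1 library, as the log2 of its scaled coverage relative to the mean of the gene in WT; black bars are medians of the 20 cytosolic (blue) and 16 mitochondrial (orange) genes. Knockout (KO) libraries 1 and 2 have cytosolic medians of 0.39 and 0.59 and libraries 3 and 4 of 1.26 and 1.21, on both sides of the 0.74 to 0.96 of Eμ-Myc.

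Against WT, the knockout group kept raised synthetase levels, by a comparison that uses the same WT libraries as the one above and is not independent of it. Of the cytosolic genes 18 of 20 rose, with a median over all 20 of 0.84, and of the mitochondrial genes 9 of 16, with a median over all 16 of 0.66; 31% of 12692 genes tested were called, 19.9% higher and 11% lower. None fell. Sars and Wars did not pass, at 0.26 (adjusted p = 0.178) and 0.47 (adjusted p = 0.0687). All 4 knockout libraries lay above all WT libraries in 30 of the 36 members, against 22.9% of all genes.

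The largest cytosolic increases were those of Eprs and Gars. Eprs was at 186, 236, 434 and 388 in the knockout group, 1.35 above WT (SE 0.27, adjusted p = 0.0160). Gars was at 133, 165, 294 and 276, 1.31 above WT (SE 0.26, adjusted p = 0.0149). The lowest knockout library of both was clear of the WT libraries. Among mitochondrial genes, Lars2 was at 34.6, 43.6, 69.7 and 71.9, 1.18 above WT (SE 0.25, adjusted p = 0.0181), and Yars2 was 1.06 above WT (SE 0.30, adjusted p = 0.0355).

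These calls depended on single libraries. Without 1 library, the cytosolic count was 6, 2, 3 and 7 for WT libraries 1 to 4. It was 6 and 5 for knockout libraries 3 and 4. The mitochondrial count was 1, 0, 0 and 5 for WT and 1 and 1 for knockout libraries 3 and 4. Over all genes, 1184, 796, 839 and 1714 were called in those WT fits, and 909 and 862 in those knockout fits. Without knockout library 1 or 2, 30 and 27 members were called, beside 6787 and 4290 of all genes. In every one of these fits all 36 log2 fold changes were above 0, and Iars and Kars were the members called in each. Eprs lost its call without WT library 2 (adjusted p = 0.0513), Gars without WT library 2 or 3, and Lars2 and Yars2 without any of WT libraries 1 to 3 or knockout libraries 3 and 4, Yars2 also without WT library 4.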

How the data were processed

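Polyadenylated RNA of 12 libraries, 4 per group, was prepared with a directional kit, per the labels' protocols. The authors deposited, per library, coverage per gene, a signal with 1 decimal that was not scaled between libraries; of values above 0, 91.6% had a fractional part. The submitters' processing notes name mm10, DESeq and R 4.3.3; the aligner and the counting step are not given in the sources used here. Libraries were scaled by trimmed means of log ratios (unweighted, trimming 30% of the ratios and 5% by mean level from both ends, over genes of at least 1 in every library). A gene was tested in a comparison if 4 or more of its 8 libraries had a scaled coverage of 1 or higher. The test was limma 3.58.1 (trended prior, robust) on log2(scaled coverage + 0.5), two-sided, with Benjamini-Hochberg adjustment over all genes tested. The method was tested on data simulated with 200 genes changed by 1 on the log2 scale. For Eμ-Myc against WT it recovered 70.5% of them, with 4.08% of the calls false. For the knockout group against Eμ-Myc it recovered 36.5%, with 7.59% of the calls false. The simulated noise was independent between genes, and no genes but these 200 changed. In the data, 55.9% of genes were called in Eμ-Myc against WT. Knockout libraries 3 and 4 lay above libraries 1 and 2 in 41.6% of genes. The simulated rates need not hold for such data. All 36 members passed the filter in each of the 3 comparisons. A fold change on this scale understates that of low genes. The members and lists were chosen with earlier results of these data known. Named in full were, in Eμ-Myc against WT, the 4 highest and 3 lowest log2 fold changes of each set, in the other comparisons the smallest p or largest calls, the 3 pairs that differed most and the 3 partners with the smallest p; Sars/Sars2 and the other genes named were added after their values were seen. Deviations from the group means of same-numbered knockout and Eμ-Myc libraries had r across genes of 0.639, 0.187, 0.245 and 0.597. Knockout library 2 correlated best with Eμ-Myc library 1, and knockout library 3 with Eμ-Myc library 4. The fit reported for that comparison did not pair the libraries. An alternative fit with the replicate number as a block changed no call of a member there. Tables, promoter searches and figures used Python 3.11.15, pandas 2.3.3 and matplotlib 3.10.9. Some results are not reported here.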

Additional observations from a re-analysis of the deposited data

Results flagged for a closer look

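The 36 members were each checked in the 3 groups, 108 sets of 4 libraries, for a library whose gap to its nearest neighbour exceeded Dixon's 95% critical share of the whole range; chance alone gives about 1 in 20 such sets, and 4 were found. Nars in WT library 1 was at 239 against 215 to 219 in the other WT libraries, a share of 0.838. Ears2 in knockout library 3 was at 8.41 against 7.34 to 7.48, a share of 0.876. Mars2 in Eμ-Myc library 1 was at 25.7 against 23.3 to 23.5, a share of 0.922. Pars2 in Eμ-Myc library 3 was at 42.6 against 32.3 to 33.7, a share of 0.871.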

How the results depend on the processing

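In Eμ-Myc against WT the called members numbered 18 to 20 cytosolic and 10 to 13 mitochondrial over every setting tried, all higher; without 1 library the ranges were 19 to 20 and 11 to 11. With a filter of 10 in every library 33 members passed. Under total coverage scaling the log2 fold change of Hars2 was -0.054, and the cause was not tested. For the knockout group against Eμ-Myc, no setting called a member except library quality weights, which called 18 cytosolic and 10 mitochondrial members and 6947 genes in all; without 1 library the counts were 0 and 0. In the knockout group against WT, quality weights called 15 mitochondrial members and a replicate block 11 cytosolic and 6 mitochondrial members; there the numbers did not pair the samples (r of 0.391, -0.410, 0.135 and -0.061), nor in Eμ-Myc against WT (0.225, -0.099, 0.250 and 0.129), where the block called 20 and 12. Without 1 library that comparison ranged from 2 to 19 cytosolic and from 0 to 11 mitochondrial members, with 796 to 6787 genes called in all beside 3930; the block called 1963, the fit of all 12 libraries 6105 and quality weights 10622. Trimmed means over every gene above 0, a setting chosen after seeing the data, called 14 and 7 members there. The read depth is unknown, and how far it limits the lowest members, Ears2, Wars2 and Nars2, was not measured.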

Other observations

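Wars, the synthetase known to respond to interferon, rose in Eμ-Myc while the interferon genes went the other way. Of 12 interferon-response genes 11 fell, with a median log2 fold change of -1.16, where 27.3% of all genes tested were called lower. All 9 T-cell genes and all 6 natural killer cell genes also fell between these groups, and their part in the interferon counts was not tested. Ifit1, an antiviral effector gene, fell by 2.04 (SE 0.24, limma adjusted p = 0.000113) and the peptide transporter gene Tap1 by 0.83 (SE 0.09, adjusted p = 6.67e-05). The groups did not overlap for either gene. Psmb9, at -0.34, did not pass. No relation between Wars and these genes was tested.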
